A study of Homo sapiens with 38 samples.

Results

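HOX genes and the TALE genes that encode their DNA-binding partners were followed by RNA-seq in SH-SY5Y cells, a human neuroblastoma line labelled as coming from bone marrow that grows neurites in retinoic acid. They were chosen by name alone: the numbered genes of the HOXA, HOXB, HOXC and HOXD clusters, the antisense transcripts named after these clusters, and the numbered MEIS, PBX and PKNOX genes. Of 15378 genes listed in the experiment with knockouts and an inhibitor, 38 met the rule. They were 26 of the 39 human HOX genes, the antisense transcripts HOXA11-AS, HOXC-AS1 and HOXD-AS2, and the 9 TALE genes. The 26 comprised 4 of 11 genes of the HOXA cluster, 6 of 10 of HOXB, 7 of 9 of HOXC and 9 of 9 of HOXD. Of 14820 genes listed in the experiment with USP7-heterozygous cells, 28 met the rule, namely 2 HOXA, 2 HOXB, 7 HOXC and 7 HOXD genes, HOXD-AS2 and the 9 TALE genes. Every listed gene reached 26.0 normalized counts in at least 1 library of the first table and 25.3 in the second, and HOX genes outside the tables were not analysed here.

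The first experiment held 10 groups of 3 libraries of polyadenylated RNA. Cells without functional p53 and USP7 (p53_USP7_DKO), without p53 and BCOR (p53_BCOR_DKO), without p53 only (p53-KO) and wild-type cells were each sequenced after neural differentiation and undifferentiated. Wild-type cells were also differentiated with the USP7 inhibitor FT671, whose dose the labels do not give, or with its vehicle DMSO. Both double knockouts lack p53 as well, so they were set against p53-KO cells. The second experiment held 4 groups of 2 libraries, USP7-heterozygous and wild-type cells, each neural and undifferentiated. Neural cells had spent 10 days in Neurobasal medium with B27 and 10 µM retinoic acid. The labels do not say how many clones a genotype stands for, or whether libraries of 1 group came from separate cultures, so p-values measure the spread between these libraries, which may be technical.

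HOX genes encode homeodomain transcription factors that give cells their position along the body axis. Their order along each cluster, given by the paralog number, follows the order in which they are switched on, low numbers early and towards the head, high numbers late and towards the tail, and retinoic acid switches on low-numbered genes first. Polycomb complexes keep HOX genes silent and Trithorax complexes keep them active. BCOR is a subunit of a noncanonical Polycomb complex, ncPRC1.1, that is brought to CpG-rich DNA by KDM2B, and USP7, a deubiquitinase best known for stabilising MDM2 and so restraining p53, has been purified with this complex. PBX and MEIS proteins, and the PKNOX proteins (also named PREP), bind DNA together with HOX proteins. PBX3, MEIS1 and MEIS2 have known roles in neuroblastoma or leukaemia.

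Each library held between 16149022 and 17946790 reads in genes. Transcripts of USP7 and BCOR followed the labels: USP7 lay between 379 and 709.8 normalized counts in p53_USP7_DKO libraries and between 2849 and 3069 in p53-KO libraries, and BCOR between 702 and 1054 in p53_BCOR_DKO libraries and between 3244 and 4361 in p53-KO libraries. BCOR was lower in p53_USP7_DKO libraries too, between 1848 and 2716 undifferentiated and between 2318 and 2544 neural. In the second experiment USP7 lay between 1833 and 1878 in heterozygous libraries and between 2917 and 3188 in their wild type. Of 8 listed noradrenergic markers of the line, 7 or 8 had reads in every library of the first experiment. The second experiment lists 7 of them, without TH, and all 7 had reads in every library. A pair of libraries stood apart from their groups: the third p53-KO undifferentiated library, in which skeletal muscle transcripts made up 0.073% (0.00153% or less in any other library), and the third p53_USP7_DKO undifferentiated library, with a mean correlation of 0.9769 with its group mates. With both left out, a setting chosen after seeing the data, 19 genes were called for USP7 loss undifferentiated (18 with them), 24 for BCOR loss undifferentiated (23), 8 for p53 loss undifferentiated (7), 28 for p53-KO differentiation (27) and 20 for p53_USP7_DKO differentiation (20), in the comparisons described below.

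Starts of 22 of the 38 genes were found in RefSeq (GRCh38.p14), whereas the counts were made on hg19. The 250 bases before the start are printed below for HOXA10, HOXA11, HOXA13, HOXD10 and HOXD11. These were called as higher in undifferentiated p53_BCOR_DKO than in p53-KO cells. Binding of the complex that holds BCOR to these windows was not measured, and a link of CpG content to these calls was not tested. In all, 3 HOXA and 5 HOXD genes were so called, and the other HOXD genes among them are not printed. Capitals mark CpG dinucleotides.
HOXA10: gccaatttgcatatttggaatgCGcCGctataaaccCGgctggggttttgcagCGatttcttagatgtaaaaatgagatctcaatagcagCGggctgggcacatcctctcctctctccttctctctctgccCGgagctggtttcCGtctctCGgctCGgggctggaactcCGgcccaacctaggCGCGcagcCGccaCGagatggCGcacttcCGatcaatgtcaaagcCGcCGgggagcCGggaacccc
HOXA11: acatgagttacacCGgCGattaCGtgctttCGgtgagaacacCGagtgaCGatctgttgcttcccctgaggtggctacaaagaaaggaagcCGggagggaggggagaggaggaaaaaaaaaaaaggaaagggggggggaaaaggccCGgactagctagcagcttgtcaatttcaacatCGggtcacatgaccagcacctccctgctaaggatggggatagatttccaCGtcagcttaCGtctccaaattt
HOXA13: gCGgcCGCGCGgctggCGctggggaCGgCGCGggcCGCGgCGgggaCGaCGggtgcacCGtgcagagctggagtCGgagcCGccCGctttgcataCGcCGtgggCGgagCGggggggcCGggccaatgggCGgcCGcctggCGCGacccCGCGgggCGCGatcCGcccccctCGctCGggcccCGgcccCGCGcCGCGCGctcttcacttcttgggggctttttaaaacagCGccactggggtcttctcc
HOXD10: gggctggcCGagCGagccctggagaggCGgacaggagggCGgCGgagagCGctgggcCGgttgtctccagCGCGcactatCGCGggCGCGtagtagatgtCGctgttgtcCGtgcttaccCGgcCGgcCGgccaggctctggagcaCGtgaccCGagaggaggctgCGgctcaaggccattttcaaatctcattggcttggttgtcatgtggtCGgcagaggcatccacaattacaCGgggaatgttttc
HOXD11: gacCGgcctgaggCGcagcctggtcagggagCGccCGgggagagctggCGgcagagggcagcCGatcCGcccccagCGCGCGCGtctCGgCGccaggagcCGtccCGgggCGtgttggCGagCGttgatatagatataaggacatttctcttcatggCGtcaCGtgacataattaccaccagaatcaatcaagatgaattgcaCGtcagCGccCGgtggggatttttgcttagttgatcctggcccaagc
These windows lie at chr7:27179862-27180111, chr7:27185233-27185482 and chr7:27200092-27200341 on the minus strand and at chr2:176116528-176116777 and chr2:176107030-176107279 on the plus strand. HOXA13 held 40 CpGs, more than 97.8% of all 35116 windows of this length, HOXA10 held 19, HOXA11 held 11, and HOXD10 and HOXD11 held 23 each. The 13 HOX coding windows had a median of 21 CpGs and a range from 4 to 40, against a median of 11 over all windows. Those of HOXC4 and HOXC5 are the same 250 bases, counted for each gene. The window of HOXA11 shares 175 bases with that of HOXA11-AS, which is transcribed the other way. The retinoic acid receptor motif AGGTCA, searched on both strands, was in 0 of the 22 windows and in 12.1% of all windows. The PBX-HOX motif TGATNNAT was in 1 of the 22 (HOXD11) and in 6.47% of all, and the MEIS motif TGACAG in 1 of the 22 (PBX3) and in 13.0% of all.

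In undifferentiated wild-type cells of the first experiment HOXC and HOXD genes carried most of the HOX RNA, and no HOXB gene had a read. Per kilobase of exon, the mean level was 291 normalized counts for HOXD9, 142 for HOXC10, 117 for HOXD8 and 114 for HOXD3, against 16.5 for HOXA13 and 1.46 for HOXA11. MEIS2 stood at 964 and PBX3 at 281 on this scale, while PKNOX2 stood at 2.73. HOXC4, HOXC5 and HOXC6 share exons, HOXD3 and HOXD4 each share most of theirs with the overlapping gene AC009336.2, and HOXA11 and HOXA11-AS, like HOXD1 and the antisense AC009336.3, overlap on opposite strands. Whether reads were counted by strand is not given in the sources used here, so the reads of such pairs cannot be told apart.

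**Figure D1:**
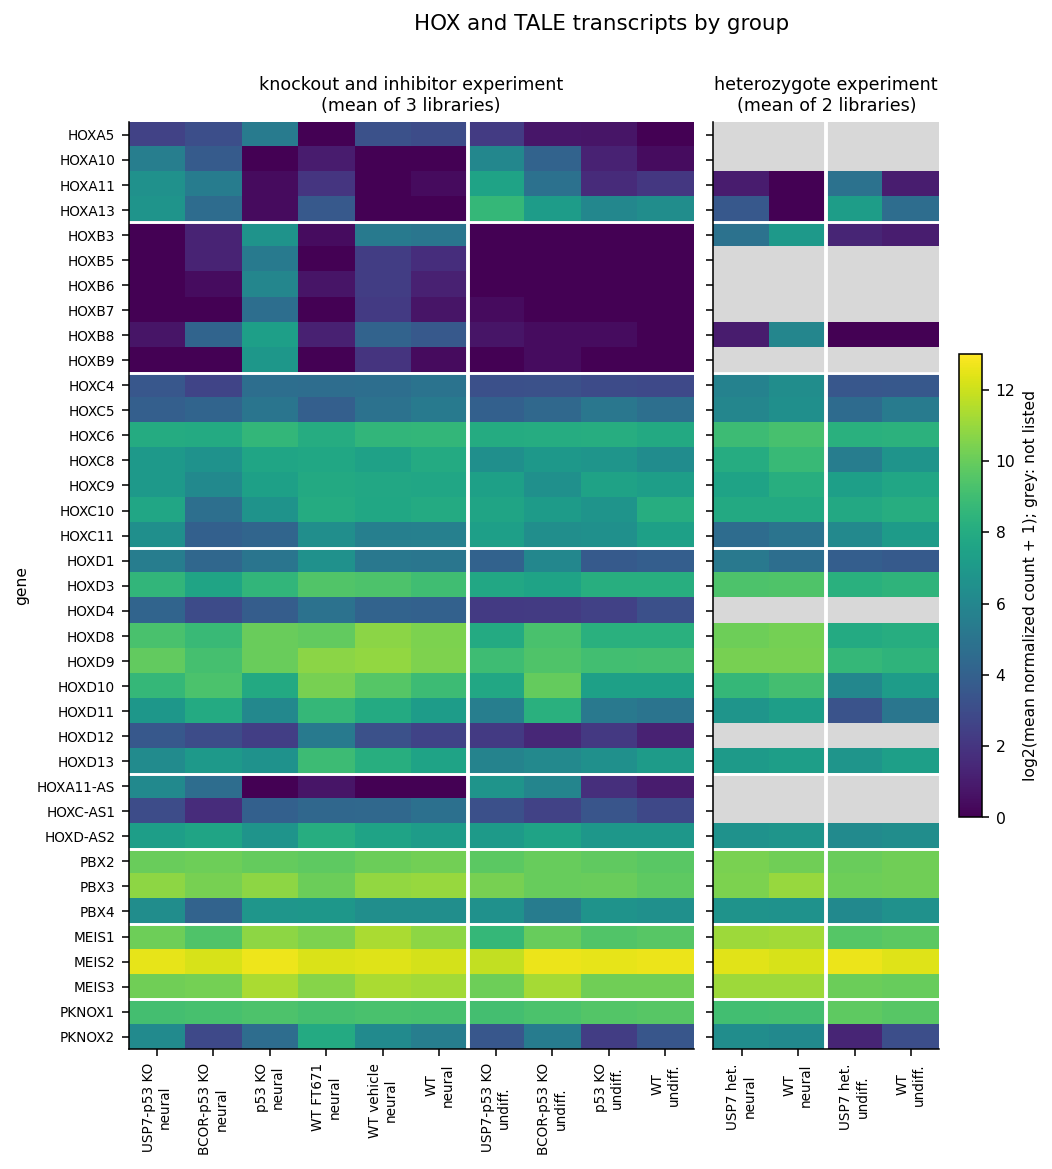
Mean level of each gene shown (rows, by cluster and paralog number) in each group (columns) as log2(mean normalized count + 1), with the knockout and inhibitor experiment left and the heterozygote experiment right. Within the knockout and inhibitor experiment HOXB rows are brightest in the neural p53-KO group, and in both experiments they lie at or near 0 in every undifferentiated group. HOXA10 to HOXA13 are brightest in p53_USP7_DKO cells.

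Neural differentiation of wild-type cells raised the whole HOXD cluster and most HOXC genes, and HOXB3, HOXB8 and HOXA5 went with it, while HOXA13 had no reads left and HOXC11 was lower. Of the 36 genes with a mean of at least 5 normalized counts, which left out HOXB5 and HOXB7, 26 were higher and 6 lower at an adjusted p below 0.05 in limma, on log2(normalized count + 1). Among all genes tested, 65.7% were called, 32.4% as higher and 33.4% as lower. All 9 HOXD genes were higher, with a median log2 difference of 1.40, as were 5 of 7 HOXC genes, with a median of 0.55. The median over all genes tested was -0.01. Fewer cells that carry a transcript and less of it per cell cannot be told apart in these bulk libraries.

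HOXD8 had 1435, 1347 and 1324 normalized counts in neural libraries, against 309.9, 313 and 302 in undifferentiated ones (log2 difference 2.15 ± 0.07, adjusted p = 2.52e-20, where ± is the standard error). HOXD11 had 129.8, 130.0 and 172 in neural and 30.4, 28.0 and 36.1 in undifferentiated libraries (log2 difference 2.15 ± 0.14, adjusted p = 1.92e-13). Both genes were above their undifferentiated range in every neural library. HOXC4, at the low-numbered end of its cluster, had 34.6, 27.9 and 25.8 against 3.04, 10.0 and 6.01 (log2 difference 2.16 ± 0.37, adjusted p = 9.46e-06). HOXC11, a high-numbered gene of the same cluster, went the other way, with 47.1, 43.3 and 60.3 in neural and 176, 157 and 161 in undifferentiated libraries (log2 difference -1.71 ± 0.19, adjusted p = 8.84e-09). HOXA13, the last gene of its cluster, had 0 reads in the 3 neural libraries and 86.1, 83.1 and 80.2 normalized counts in the undifferentiated ones, at least 86.5-fold lower with a floor of 3 reads over the group. HOXB3 had 42.3, 44.3 and 13.4 in neural libraries and 0 reads in undifferentiated ones, at least 33.1-fold higher. The third neural library was the lowest for HOXB3, HOXB8 (16.3, 14.4 and 2.87) and HOXA5 (9.62, 8.66 and 2.87), none of which had a read in the undifferentiated wild-type libraries of this experiment.

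By paralog number, the 3 tested HOX genes of groups 1 to 3 and the 9 of groups 4 to 8 were all higher in neural cells, whereas of the 12 of groups 9 to 13, 6 were higher and 3 lower. The antisense transcript HOXC-AS1 was higher (2.03 ± 0.33), HOXD-AS2 slightly so (0.31 ± 0.11), and HOXA11-AS lower, with 0 reads in neural libraries and 3 in undifferentiated ones. A log2 difference of the last kind rests on too few reads for a fold.

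Of the 9 TALE genes, 6 were higher and 2 lower in neural wild-type cells. PBX3, a HOX partner, had 2095, 2012 and 2061 normalized counts in neural and 830.3, 871 and 963 in undifferentiated libraries (log2 difference 1.21 ± 0.07, adjusted p = 1.51e-14), and PBX2 1168, 1143 and 1239 against 831, 831 and 797 (log2 difference 0.53 ± 0.08, adjusted p = 1.82e-06). For both genes no neural library reached down to an undifferentiated one. PBX4 overlapped between states, with 95.2, 78.9 and 78.5 in neural and 88.1, 93.2 and 88.2 in undifferentiated libraries (log2 difference -0.10 ± 0.13, adjusted p = 0.525). MEIS1 had 1893, 1774 and 1699.7 against 835, 842 and 709 (log2 difference 1.17 ± 0.07, adjusted p = 5.5e-15) and MEIS3 2383, 2436 and 2108 against 1149, 1145 and 1126 (log2 difference 1.01 ± 0.10, adjusted p = 8.64e-10). Unlike these MEIS genes, MEIS2, the most abundant of the 3, was lower, with 4786, 4792 and 4395 in neural and 6093, 6488 and 6483 in undifferentiated libraries (log2 difference -0.45 ± 0.05, adjusted p = 1.17e-08). PKNOX1 was lower too, 564, 618 and 613 against 754, 766 and 853 (log2 difference -0.40 ± 0.06, adjusted p = 1.67e-06). PKNOX2, which starts from few reads, had 43.3, 54.9 and 40.2 against 9.11, 9.02 and 12.0 (log2 difference 2.09 ± 0.30, adjusted p = 8.81e-07).

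The wild-type libraries of the heterozygote experiment, which are other libraries, gave 19 higher and 4 lower among 28 genes, where 79.3% of all genes were called, 39.7% as higher and 39.6% as lower. HOXB3 had 142 and 118 normalized counts in neural and 2.06 and 0 in undifferentiated libraries, and HOXB8 68.2 and 54.8 against 0 and 0. These HOXB levels were above those of every wild-type neural library of the first experiment, although the tables were normalized separately. HOXA13 had 0 and 0 against 27.9 and 20.4, at least 16.5-fold lower, and HOXC11 33.1 and 29.3 against 134 and 141 (log2 difference -2.11 ± 0.20, adjusted p = 1.33e-09). HOXC4 (2.79 ± 0.30) and PKNOX2 (3.15 ± 0.58) were higher here too, PKNOX1 (-0.49 ± 0.07) and MEIS2 (-0.15 ± 0.04) lower. PBX2 was not called here (log2 difference 0.00 ± 0.06, adjusted p = 1.0). The wild-type cells of the experiments also differed in noradrenergic markers. In the first these made up 0.417% to 0.446% of reads in neural and 0.339% to 0.36% in undifferentiated libraries. In the second, where TH is not listed, it was 0.278% to 0.286% and 0.483% to 0.495%.

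Within the first experiment p53-KO cells had far more HOXB RNA after differentiation than wild-type cells. This did not hold against the wild-type neural libraries of the heterozygote experiment for HOXB3, which was higher there than in any p53-KO library, in a table normalized separately, nor for the double knockouts, which also lack p53: the group means of the 6 HOXB genes summed to 0.66 normalized counts in neural p53_USP7_DKO and 20.32 in neural p53_BCOR_DKO cells, against 49.03 in wild-type cells. In p53-KO cells, 21 of 36 genes were higher and 6 lower in the neural state, where 69% of all genes were called, 35.6% as higher and 33.5% as lower. HOXB8 had 152, 185 and 145 normalized counts in neural p53-KO libraries and 0, 0 and 1.06 in undifferentiated ones. HOXB9 had 113, 131 and 107, HOXB3 93.4, 102 and 105 and HOXB6 56.0, 65.2 and 63.4 in neural p53-KO libraries, and all 3 had 0 reads in undifferentiated p53-KO libraries. That is at least 114-fold higher for HOXB9, 97.7-fold for HOXB3 and 59.9-fold for HOXB6. HOXB5 had 32.4, 48.7 and 34.1 and HOXB7 20.6, 26.3 and 27.3, so that all 6 listed HOXB genes were present. Apart from HOXB3, these genes and HOXA5 had a group mean of at least 20 in no other group of this experiment. They were thus listed through neural p53-KO cells, and their being highest there was set by the listing. HOXA13 had 1 read in neural p53-KO libraries and 61.8, 56.5 and 72.2 normalized counts in undifferentiated ones, and HOXC11 18.7, 16.5 and 18.5 against 93.2, 92.8 and 91.3 (log2 difference -2.31 ± 0.19, adjusted p = 2.3e-11). PKNOX1 was slightly lower (-0.17 ± 0.06, adjusted p = 0.0158), a call that was lost without the second p53-KO undifferentiated library (adjusted p = 0.0549).

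Set against wild-type cells, undifferentiated p53-KO cells differed in 7 of 36 genes, 3 higher and 4 lower, where 22.2% of all genes were called, 12.2% as higher and 10.1% as lower. HOXC10 had 116, 81.7 and 118 normalized counts in p53-KO libraries and 280.5, 277 and 266 in wild-type libraries (log2 difference -1.39 ± 0.14, adjusted p = 7.83e-09). HOXC11 (-0.83 ± 0.19) and HOXD13 (-0.57 ± 0.12) were also lower, with no overlap between groups. HOXC8 (0.43 ± 0.13) and PBX3 (0.25 ± 0.07) were slightly higher, and both calls were lost without either of 2 libraries (adjusted p up to 0.127).

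Between neural p53-KO and neural wild-type cells, 7 genes were higher and 13 lower of 36, where 29.8% of all genes were called, 17.8% as higher and 12% as lower. The 4 tested HOXB genes and HOXA5 were 5 of the 7 higher ones. All of these but HOXB3 were listed through neural p53-KO cells, so the count of higher genes is no independent support. HOXB9 had 113, 131 and 107 normalized counts in p53-KO libraries against 0, 0.963 and 0 in wild-type libraries, a ratio of 366 with a counting interval from 65.3 to 14509. HOXB6 had 56.0, 65.2 and 63.4 against 1.92, 0.963 and 0.957 (log2 difference 4.80 ± 0.41, adjusted p = 4.37e-10), and HOXB8 152, 185 and 145 against 16.3, 14.4 and 2.87 (log2 difference 3.99 ± 0.57, adjusted p = 3.23e-06). HOXA5 had 40.3, 41.9 and 41.9 against 9.62, 8.66 and 2.87 (log2 difference 2.53 ± 0.50, adjusted p = 0.000256), and no p53-KO library overlapped the wild-type range in these genes. HOXC and HOXD genes at the other end were lower: HOXD10 had 257, 218 and 225 against 485, 473 and 491 (log2 difference -1.05 ± 0.09, adjusted p = 1.03e-09) and HOXD11 69.8, 69.1 and 57.5 against 129.8, 130.0 and 172 (log2 difference -1.12 ± 0.14, adjusted p = 6.04e-07). HOXC10 (-1.28 ± 0.14) and HOXC11 (-1.43 ± 0.19) were lower as well. In all, 6 of 9 HOXD genes and 3 of 7 HOXC genes were lower and none higher. Noradrenergic markers made up 0.519% to 0.558% of reads in neural p53-KO libraries and 0.417% to 0.446% in wild-type libraries, and fibroblast or mesenchyme markers 0.0581% to 0.0616% and 0.152% to 0.196%. Gene by gene these lists were mixed. Of 8 noradrenergic markers 3 were called as higher and 3 as lower, and of 7 fibroblast or mesenchyme markers 3 and 2. The part of these markers in the result was not tested.

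**Figure D2:**
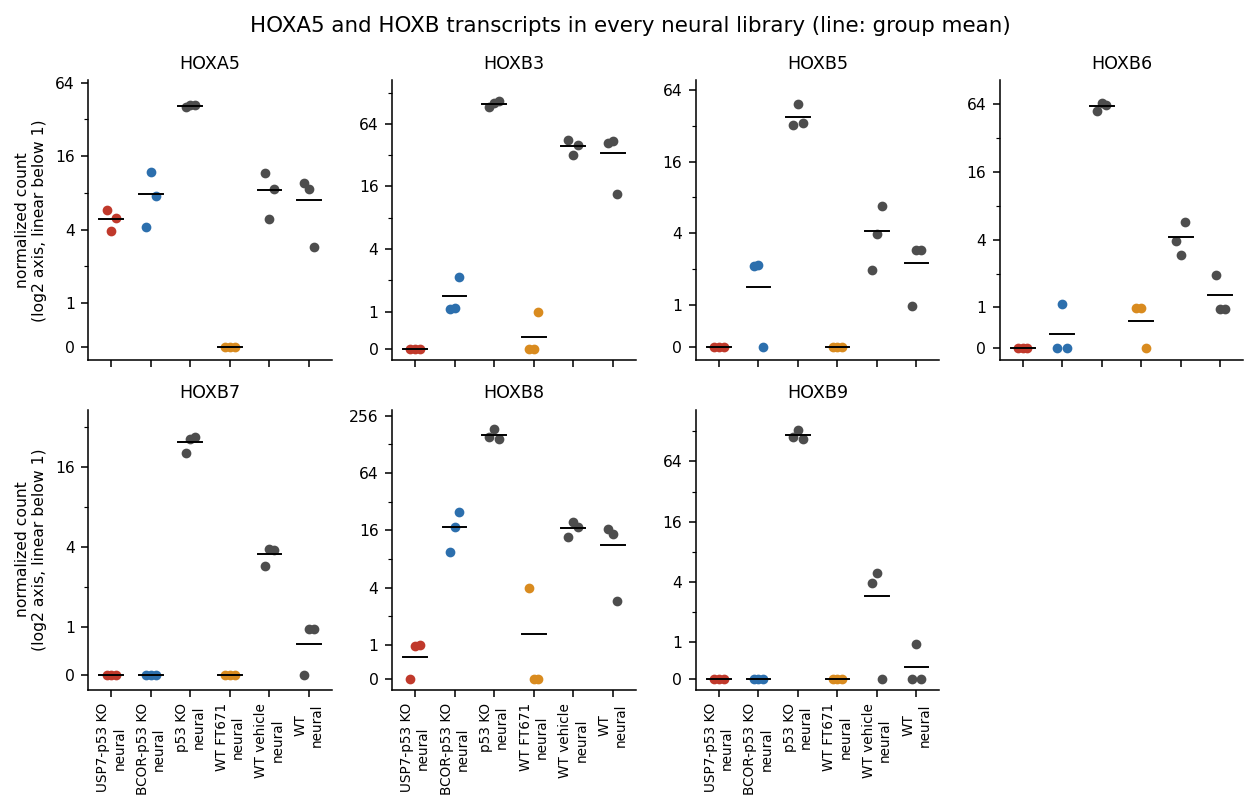
Normalized counts of HOXA5 and the 6 listed HOXB genes in each of 3 libraries per neural group, on a log2 axis that is linear below 1, with a line at the group mean. Neural p53-KO libraries stand highest in all 7 panels, and p53_USP7_DKO and FT671 libraries lie at 5.79 or below in each. All of these genes but HOXB3 had a group mean of at least 20 only in neural p53-KO cells and were listed through them.

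With USP7 lost as well as p53, the high-numbered HOXA genes were far higher in both states, and neural cells had almost no HOXB RNA. In undifferentiated cells 10 of 36 genes were higher and 8 lower in p53_USP7_DKO than in p53-KO cells, where 57.3% of all genes were called, 28.9% as higher and 28.4% as lower. All 4 listed HOXA genes, of 11 in the cluster, were higher, with a median log2 difference of 3.71, and the median over all 36 was 0. In this experiment HOXA10 had a group mean of at least 20 only in p53_USP7_DKO cells, and HOXA11 only in the double knockouts. Both were thus listed through groups in which they were high, so this count and median are no independent support. HOXA11 had 194, 188 and 175 normalized counts in p53_USP7_DKO libraries and 2.03, 1.01 and 3.19 in p53-KO libraries (log2 difference 5.99 ± 0.35, adjusted p = 2.63e-14). HOXA10 had 67.0, 66.3 and 57.5 against 1.01, 1.01 and 2.12 (log2 difference 4.79 ± 0.35, adjusted p = 4.11e-12), and HOXA11-AS 125, 99.5 and 93.3 against 1.01, 2.02 and 4.25 (log2 difference 5.07 ± 0.37, adjusted p = 2.97e-12). These transcripts were almost absent from p53-KO cells, whereas HOXA13 was present there, with 404, 444 and 343 in p53_USP7_DKO and 61.8, 56.5 and 72.2 in p53-KO libraries (log2 difference 2.62 ± 0.28, adjusted p = 4.92e-09). HOXA5 had 4.93, 0.976 and 5.42 against 2.03, 0 and 0, 11 reads against 2 (ratio 5.42, counting interval 1.18 to 50.4).

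Genes that were lower in undifferentiated p53_USP7_DKO cells changed less. HOXC5 had 12.8, 16.6 and 15.2 normalized counts in p53_USP7_DKO libraries against 33.4, 35.3 and 36.1 in p53-KO libraries (log2 difference -1.19 ± 0.20, adjusted p = 1.49e-05) and HOXD13 68.0, 54.6 and 44.5 against 98.2, 89.7 and 89.2 (log2 difference -0.74 ± 0.12, adjusted p = 4.24e-06). MEIS1 had 399.9, 457 and 371 against 698, 720.0 and 726 (log2 difference -0.81 ± 0.07, adjusted p = 3.75e-11) and MEIS2 3729, 3669 and 3294 against 5802, 6153 and 5602 (log2 difference -0.72 ± 0.05, adjusted p = 2.15e-12). PKNOX1 (-0.43 ± 0.06) was lower and PBX3 (0.29 ± 0.07) higher. Of the 9 TALE genes 4 were lower and 2 higher. For this comparison same-numbered libraries deviated together, and with the replicate number as a block 18 genes were called, as without it. In undifferentiated p53_USP7_DKO libraries noradrenergic markers made up 0.164% to 0.257% of reads, against 0.356% to 0.367% in p53-KO libraries, and fibroblast or mesenchyme markers 0.061% to 0.0749% against 0.0476% to 0.0487%. Their part in these differences was not tested.

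In the neural state 11 of 36 genes were higher and 19 lower in p53_USP7_DKO than in p53-KO cells, where 63.7% of all genes were called, 30.7% as higher and 33% as lower. HOXA13 had 103, 96.6 and 113 normalized counts in p53_USP7_DKO libraries against 0, 0.973 and 0 in p53-KO libraries, 319 reads against 1. HOXA11 had 89.8, 99.5 and 95.7 against 0, 0.973 and 0, 291 reads against 1. HOXA11-AS (57.9, 84.9 and 67.8) and HOXA10 (45.4, 41.0 and 53.8) had 0 reads in neural p53-KO libraries, which makes them at least 71.8-fold and 47.8-fold higher. The HOXB genes went the opposite way: HOXB3, HOXB6 and HOXB9 had 0 reads in the 3 neural p53_USP7_DKO libraries, at least 102-fold, 62.9-fold and 119.8-fold lower than in p53-KO libraries. HOXB8 had 2 reads against 494, and HOXB5 and HOXB7, which were not tested, had 0 reads in p53_USP7_DKO libraries. HOXA5 had 5.79, 3.9 and 4.98 normalized counts in p53_USP7_DKO libraries against 40.3, 41.9 and 41.9 in p53-KO libraries (log2 difference -2.86 ± 0.50, adjusted p = 1.29e-05).

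HOXC and HOXD genes split by position. The 5 lower HOXC genes were HOXC4 (-1.22 ± 0.37), HOXC5, HOXC6, HOXC8 and HOXC9, and the 2 higher ones were HOXC10 (0.99 ± 0.14) and HOXC11 (2.23 ± 0.19). HOXC11 had 78.2, 101 and 84.7 normalized counts in neural p53_USP7_DKO libraries and 18.7, 16.5 and 18.5 in p53-KO libraries. In the HOXD cluster HOXD8 (-0.76 ± 0.07) and HOXD13 (-0.35 ± 0.12) were lower and HOXD10 (0.77 ± 0.09), HOXD11 (0.82 ± 0.14) and HOXD12 (1.24 ± 0.42) higher. Over all clusters 8 of 9 genes of groups 4 to 8 were lower and none higher, while 8 of 12 of groups 9 to 13 were higher and 3 lower. These counts include genes listed through only 1 of the groups compared. HOXA5, HOXB6, HOXB8 and HOXB9 had a group mean of at least 20 only in neural p53-KO cells, and HOXA10 only in p53_USP7_DKO cells. The direction of these genes was set by the listing. MEIS3 had 1062, 1221 and 1235 against 2684, 2459.5 and 2576 (log2 difference -1.14 ± 0.10, adjusted p = 8.56e-11), and 6 TALE genes were lower in all, with PKNOX2 as the 1 that was higher (1.57 ± 0.30). Noradrenergic markers made up 0.125% to 0.136% of reads in neural p53_USP7_DKO libraries against 0.519% to 0.558% in p53-KO libraries, and fibroblast or mesenchyme markers 0.177% to 0.179% against 0.0581% to 0.0616%. Their part in these differences was not tested.

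**Figure D3:**
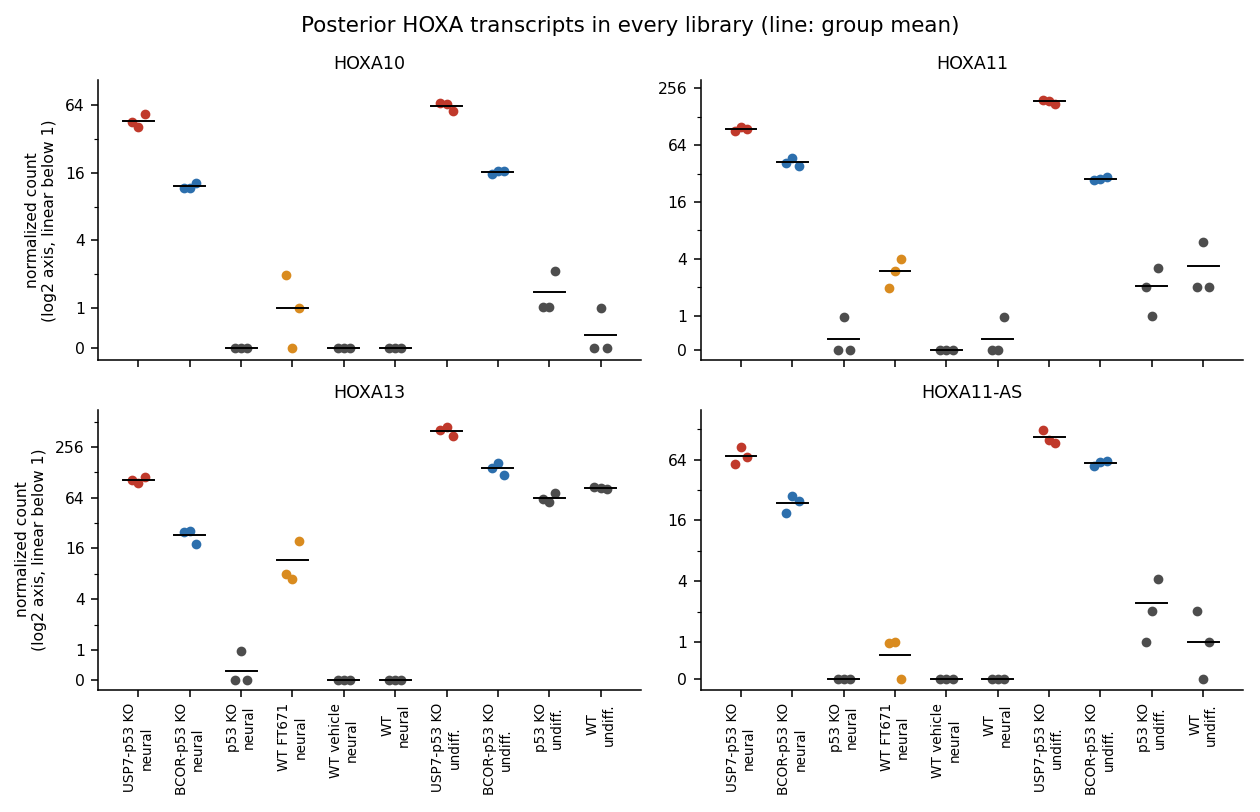
Normalized counts of HOXA10, HOXA11, HOXA13 and HOXA11-AS in each of 3 libraries per group, on a log2 axis that is linear below 1, with a line at the group mean. In each state p53_USP7_DKO libraries stand highest in all 4 panels, and the p53_BCOR_DKO group has the second highest mean. FT671 libraries lie above the vehicle libraries in HOXA11 and HOXA13, and in HOXA13 the highest of them lies above the lowest neural p53_BCOR_DKO library.

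Differentiation still raised the HOXD genes of p53_USP7_DKO cells, with 9 of 9 higher and a median log2 difference of 1.31. Of 36 genes 16 were higher and 4 lower in neural than in undifferentiated p53_USP7_DKO cells, where 65.5% of all genes were called, 33.9% as higher and 31.6% as lower, and none of the 4 tested HOXB genes was among them. HOXA13 fell to 103, 96.6 and 113 in neural libraries, against 404, 444 and 343 in undifferentiated ones (log2 difference -1.91 ± 0.28, adjusted p = 8.66e-07), and HOXC11 fell too (-0.86 ± 0.19). PKNOX2 had 66.6, 72.2 and 85.7 normalized counts in neural libraries against 19.7, 4.88 and 6.51 in undifferentiated ones (log2 difference 2.96 ± 0.30, adjusted p = 2.33e-09). MEIS1 (1.46 ± 0.07) and HOXD1 (1.50 ± 0.26) were higher. Smaller changes were less stable: HOXC9 (-0.36 ± 0.12) was no longer called without the third p53_USP7_DKO undifferentiated library (adjusted p = 0.0582), nor HOXA11 (-0.96 ± 0.35) with 0.5 as the added value (adjusted p = 0.0641).

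Loss of BCOR raised the same end of the HOXA cluster to lower levels, and, in undifferentiated cells, raised HOXD10 and HOXD11 more than any HOXC gene. In undifferentiated cells 15 of 36 genes were higher and 8 lower in p53_BCOR_DKO than in p53-KO cells, where 69.4% of all genes were called, 35.6% as higher and 33.7% as lower. HOXA11-AS had 55.4, 60.4 and 61.7 normalized counts in p53_BCOR_DKO libraries and 1.01, 2.02 and 4.25 in p53-KO libraries (log2 difference 4.24 ± 0.37, adjusted p = 4.88e-11), and HOXA11 27.2, 28.1 and 29.3 against 2.03, 1.01 and 3.19 (log2 difference 3.31 ± 0.35, adjusted p = 2.27e-09). HOXA10 (2.90 ± 0.35) and HOXA13 (1.15 ± 0.28) were higher as well. HOXD11 had 351, 300.1 and 276 against 38.5, 33.3 and 39.3 (log2 difference 3.02 ± 0.14, adjusted p = 1.03e-16), and HOXD10 957, 1009.6 and 917 against 184, 161 and 158 (log2 difference 2.51 ± 0.09, adjusted p = 5.22e-19). Of the HOXD genes 5 were higher and 3 lower, HOXD3 (-0.60 ± 0.12) among the lower ones, as were HOXC9 (-0.99 ± 0.12) and HOXC5 (-0.79 ± 0.20) in the HOXC cluster.

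Among the TALE genes PKNOX2 had 48.1, 39.6 and 40.8 normalized counts in undifferentiated p53_BCOR_DKO libraries and 2.03, 4.03 and 6.37 in p53-KO libraries (log2 difference 3.18 ± 0.30, adjusted p = 3.98e-10). PBX4 had 44.9, 43.8 and 40.8 against 85.1, 116 and 103 (log2 difference -1.20 ± 0.13, adjusted p = 4.33e-09). MEIS3 (1.06 ± 0.10) and MEIS1 (0.50 ± 0.07) were higher and PKNOX1 (-0.23 ± 0.06) lower.

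In neural cells BCOR loss lowered most of these genes: 8 of 36 were higher and 25 lower in p53_BCOR_DKO than in p53-KO cells, where 62.3% of all genes were called, 29.4% as higher and 32.9% as lower. HOXB9 had 0 reads in p53_BCOR_DKO libraries, at least 109.9-fold lower than in p53-KO libraries, HOXB6 1 read against 189, and HOXB3 1.06, 1.07 and 2.15 normalized counts against 93.4, 102 and 105 (log2 difference -5.41 ± 0.38, adjusted p = 7.72e-13). HOXB8 was reduced less far, with 9.5, 17.2 and 24.7 against 152, 185 and 145 (log2 difference -3.24 ± 0.57, adjusted p = 1.49e-05). The tested HOXB genes other than HOXB3 were listed through neural p53-KO cells, so their direction here was set by the listing. HOXC10 had 34.8, 23.6 and 20.4 against 111, 94.4 and 100.5 (log2 difference -1.95 ± 0.14, adjusted p = 8.15e-13), and 6 of 7 HOXC genes and 5 of 9 HOXD genes were lower. Among the higher genes, HOXA11 had 41.2, 47.2 and 38.7 against 0, 0.973 and 0, HOXA13 25.3, 25.8 and 18.3 against 0, 0.973 and 0, and HOXD11 262, 249 and 235 against 69.8, 69.1 and 57.5 (log2 difference 1.91 ± 0.14, adjusted p = 2.27e-12). HOXA10 and HOXA11-AS, without a read in neural p53-KO libraries, were at least 12.4-fold and 24.4-fold higher. HOXD10 (1.44 ± 0.09), HOXD13 (0.44 ± 0.12) and HOXD-AS2 (0.85 ± 0.11) complete the list of 8.

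Of the 9 TALE genes 8 were lower in neural p53_BCOR_DKO cells and none higher. PBX4 had 16.9, 15.0 and 17.2 normalized counts in p53_BCOR_DKO libraries and 116, 116 and 106 in p53-KO libraries (log2 difference -2.71 ± 0.13, adjusted p = 1.11e-16), with no overlap. PKNOX2 had 6.33, 6.44 and 6.44 against 22.6, 25.3 and 25.4 (log2 difference -1.78 ± 0.30, adjusted p = 1.09e-05), and MEIS1 693, 712 and 682 against 1786, 1721 and 1789 (log2 difference -1.34 ± 0.07, adjusted p = 1.92e-16). PBX2, the 1 exception, was not called (log2 difference 0.16 ± 0.08, adjusted p = 0.0881). Fibroblast or mesenchyme markers made up 0.712% to 0.72% of reads in neural p53_BCOR_DKO libraries against 0.0581% to 0.0616% in p53-KO libraries, all 7 with reads, and 0.337% to 0.358% against 0.0476% to 0.0487% in undifferentiated ones. Noradrenergic markers made up 0.182% to 0.204% in neural p53_BCOR_DKO libraries. The part of either in these differences was not tested.

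Differentiation of p53_BCOR_DKO cells raised 7 of 36 genes and lowered 15, where 57.1% of all genes were called, 27% as higher and 30.1% as lower, and of the HOXD genes 2 were higher and 4 lower. PKNOX2 fell to 6.33, 6.44 and 6.44 in neural libraries, against 48.1, 39.6 and 40.8 in undifferentiated ones (log2 difference -2.56 ± 0.30, adjusted p = 3.52e-08). HOXC10 fell to 34.8, 23.6 and 20.4 in neural libraries, against 144, 135 and 145 in undifferentiated ones (log2 difference -2.42 ± 0.14, adjusted p = 9.26e-15). HOXA13 (-2.58 ± 0.28), HOXC11 (-2.51 ± 0.19), MEIS1 (-0.54 ± 0.07), MEIS3 (-0.99 ± 0.10) and PBX4 (-1.35 ± 0.13) were lower in neural cells too. HOXD13 (0.94 ± 0.12) and PBX3 (0.36 ± 0.07) were higher, and so were HOXB8, with 48 reads against 1, and HOXA5, with 22 against 2.

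Both double knockouts were compared with each other directly, since their differences from p53-KO cells share the same control libraries. BCOR RNA was reduced in both. Its mean was 2346 in undifferentiated p53_USP7_DKO, 1030 in p53_BCOR_DKO and 3605 in p53-KO cells, and 2464, 776 and 4255 in neural cells. In undifferentiated cells 10 of 36 genes were higher and 15 lower in p53_USP7_DKO than in p53_BCOR_DKO cells, where 65.2% of all genes were called, 32.2% as higher and 33% as lower. HOXA11 had 194, 188 and 175 normalized counts in p53_USP7_DKO and 27.2, 28.1 and 29.3 in p53_BCOR_DKO libraries (log2 difference 2.68 ± 0.35, adjusted p = 1.64e-07), HOXA10 (1.89 ± 0.35) and HOXA13 (1.47 ± 0.28) were higher with it, and PBX4 was higher (1.08 ± 0.13). HOXD11 had 53.2, 44.9 and 40.1 against 351, 300.1 and 276 (log2 difference -2.72 ± 0.14, adjusted p = 2.87e-15), and HOXD10 (-2.13 ± 0.09), HOXD1 (-1.98 ± 0.26) and PKNOX2 (-2.17 ± 0.30) were lower as well. HOXA11-AS was not called between them (log2 difference 0.82 ± 0.37, adjusted p = 0.0513).

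In neural cells 20 genes were higher and 6 lower in p53_USP7_DKO than in p53_BCOR_DKO cells, where 60.9% of all genes were called, 32.3% as higher and 28.6% as lower. PKNOX2 had 66.6, 72.2 and 85.7 normalized counts in p53_USP7_DKO and 6.33, 6.44 and 6.44 in p53_BCOR_DKO libraries (log2 difference 3.35 ± 0.30, adjusted p = 1.76e-10). HOXC10 had 196, 204 and 208 against 34.8, 23.6 and 20.4 (log2 difference 2.94 ± 0.14, adjusted p = 1.49e-16), and HOXC11 (2.55 ± 0.19) and PBX4 (2.28 ± 0.13) were higher too. HOXD11 (-1.09 ± 0.14), HOXD13 (-0.79 ± 0.12) and HOXD10 (-0.67 ± 0.09) were lower, and HOXD-AS2 slightly lower (-0.31 ± 0.11), a call lost without either of 2 libraries (adjusted p up to 0.0645). HOXB8 had 2 reads in p53_USP7_DKO and 48 in p53_BCOR_DKO libraries (ratio 0.0382, counting interval 0.0045 to 0.146).

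**Figure D4:**
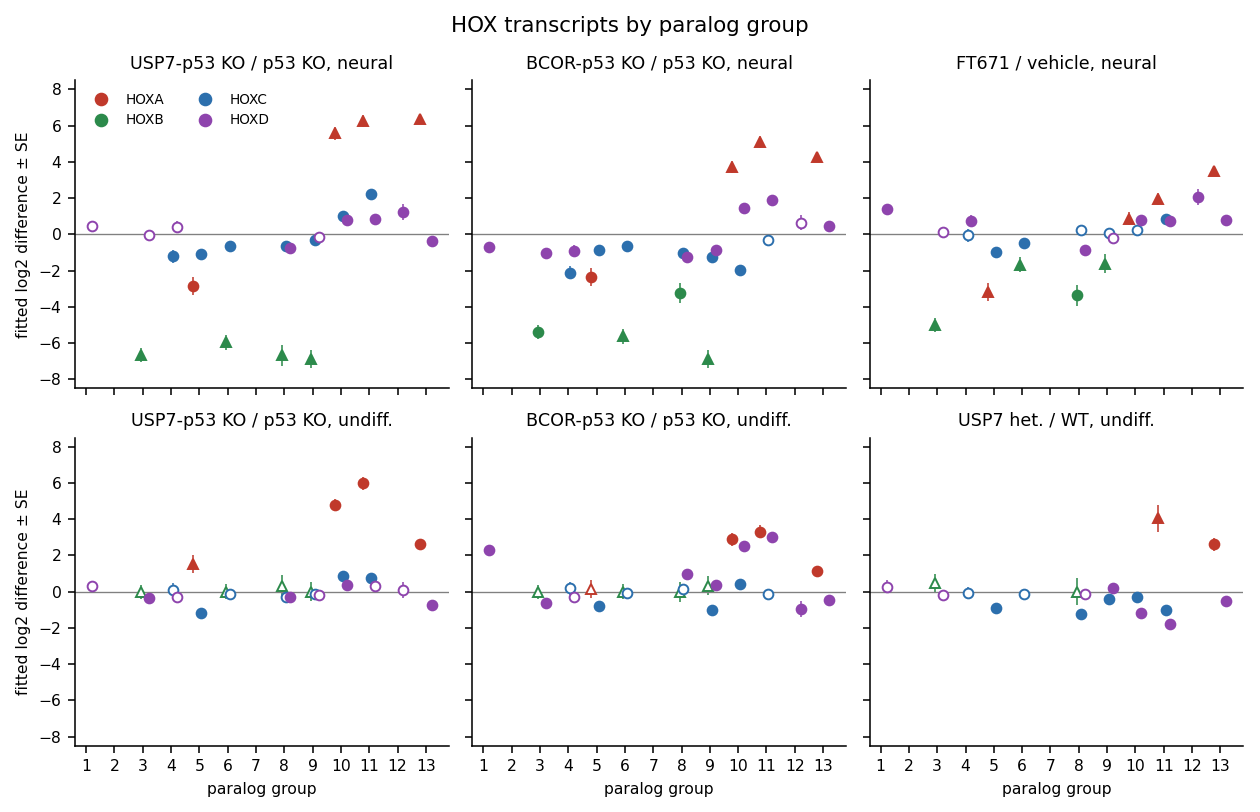
Fitted log2 difference ± SE of each tested HOX gene by paralog group in 6 comparisons, coloured by cluster, filled where the adjusted p was below 0.05. Triangles mark genes with at most 3 reads in 1 of the groups compared, whose fitted values are no bounds. In p53_USP7_DKO and p53_BCOR_DKO neural cells HOXB genes lie below -3 and HOXA10, HOXA11 and HOXA13 above 3. HOXB6, HOXB8 and HOXB9 were listed through neural p53-KO cells, HOXA10 through p53_USP7_DKO cells and HOXA11 through the double knockouts.

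FT671 was tested in cells with intact p53, against its vehicle. CDKN1A, a gene that p53 activates, lay between 12320 and 12754 normalized counts with FT671 and between 642 and 661 with vehicle. In neural cells without p53 CDKN1A lay between 370 and 463 in p53_USP7_DKO and between 186 and 226 in p53-KO libraries. In undifferentiated cells without p53 it also differed. There it lay between 1822 and 2307 in p53_USP7_DKO, 1148 and 1238 in p53_BCOR_DKO and 302 and 354 in p53-KO libraries. USP7 lay between 2384 and 2422 with FT671 and between 3007 and 3077 with vehicle. The part of a p53 response in the differences below was not tested. Of 36 genes 13 were higher and 13 lower in FT671-treated neural cells, where 65.1% of all genes were called, 33% as higher and 32.1% as lower. HOXB3 had 0, 0 and 0.987 normalized counts with FT671 and 44.7, 32.3 and 40.4 with vehicle, 1 read against 121 (ratio 0.0084, counting interval 0.0002 to 0.0478). HOXA5 had 0 reads against 26, at least 8.51-fold lower, and HOXB8 3.93, 0 and 0 against 13.6, 19.6 and 17.3 (log2 difference -3.37 ± 0.57, adjusted p = 8.03e-06). Each of these genes had fewer reads with FT671 in every library. HOXA13 had 7.87, 6.97 and 19.7 with FT671 and 0 reads with vehicle, at least 11.9-fold higher, and HOXA11 1.97, 2.99 and 3.95 against 0, at least 3.06-fold higher. These HOXA levels stayed below those of p53_USP7_DKO neural libraries, in which HOXA13 had 103, 96.6 and 113.

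Of the HOXD genes 6 were higher and HOXD8 was lower with FT671. HOXD12, near the high-numbered end, had 27.5, 44.8 and 45.4 normalized counts with FT671 and 7.77, 8.81 and 8.66 with vehicle (log2 difference 2.06 ± 0.42, adjusted p = 0.000111). HOXD1 had 97.4, 86.6 and 103 against 30.1, 41.1 and 35.6 (log2 difference 1.41 ± 0.26, adjusted p = 3.57e-05) and HOXD8 931, 955 and 939 against 1604, 1700.5 and 1794 (log2 difference -0.85 ± 0.07, adjusted p = 2.39e-11). HOXC11 was higher, 93.5, 78.6 and 83.9 against 38.8, 40.1 and 63.5 (log2 difference 0.87 ± 0.19, adjusted p = 0.000267), and HOXC5 lower, 18.7, 11.9 and 12.8 against 27.2, 31.3 and 27.9 (log2 difference -0.97 ± 0.20, adjusted p = 0.000147). By position, 6 of 9 genes of groups 4 to 8 were lower and 1 higher, and 8 of 12 of groups 9 to 13 were higher and 1 lower. PKNOX2 had 252, 256 and 226 with FT671 and 78.6, 69.5 and 70.2 with vehicle (log2 difference 1.73 ± 0.30, adjusted p = 1.45e-05). MEIS1 had 1378, 1414 and 1388 against 2596, 2549.8 and 2671 (log2 difference -0.90 ± 0.07, adjusted p = 1.77e-12), and PBX3 (-0.82 ± 0.07), MEIS3 (-0.69 ± 0.10) and PBX2 (-0.33 ± 0.08) were lower with it, while PBX4 was higher (0.47 ± 0.13). Fibroblast or mesenchyme markers made up 0.362% to 0.374% of reads with FT671 and 0.192% to 0.214% with vehicle, noradrenergic markers 0.188% to 0.2% and 0.424% to 0.431%, and their part was not tested.

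The vehicle alone moved some of the same genes. Against untreated neural cells, 8 of 36 genes were higher and 2 lower with DMSO, where 8.7% of all genes were called, 4.33% as higher and 4.38% as lower. HOXD11 had 198, 271 and 267 normalized counts with vehicle and 129.8, 130.0 and 172 without (log2 difference 0.76 ± 0.14, adjusted p = 0.00071), and HOXD10 714, 750.4 and 800.3 against 485, 473 and 491 (log2 difference 0.64 ± 0.09, adjusted p = 3e-05). HOXD13 (0.57 ± 0.12), HOXD9 (0.42 ± 0.10) and HOXD8 (0.31 ± 0.07) were also higher, so that 5 of 9 HOXD genes were. MEIS1 was higher, 2596, 2549.8 and 2671 against 1893, 1774 and 1699.7 (log2 difference 0.54 ± 0.07, adjusted p = 2.05e-06). HOXC8 was lower (-0.47 ± 0.13), a call lost without any 1 of 4 libraries (adjusted p up to 0.122).

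**Figure D5:**
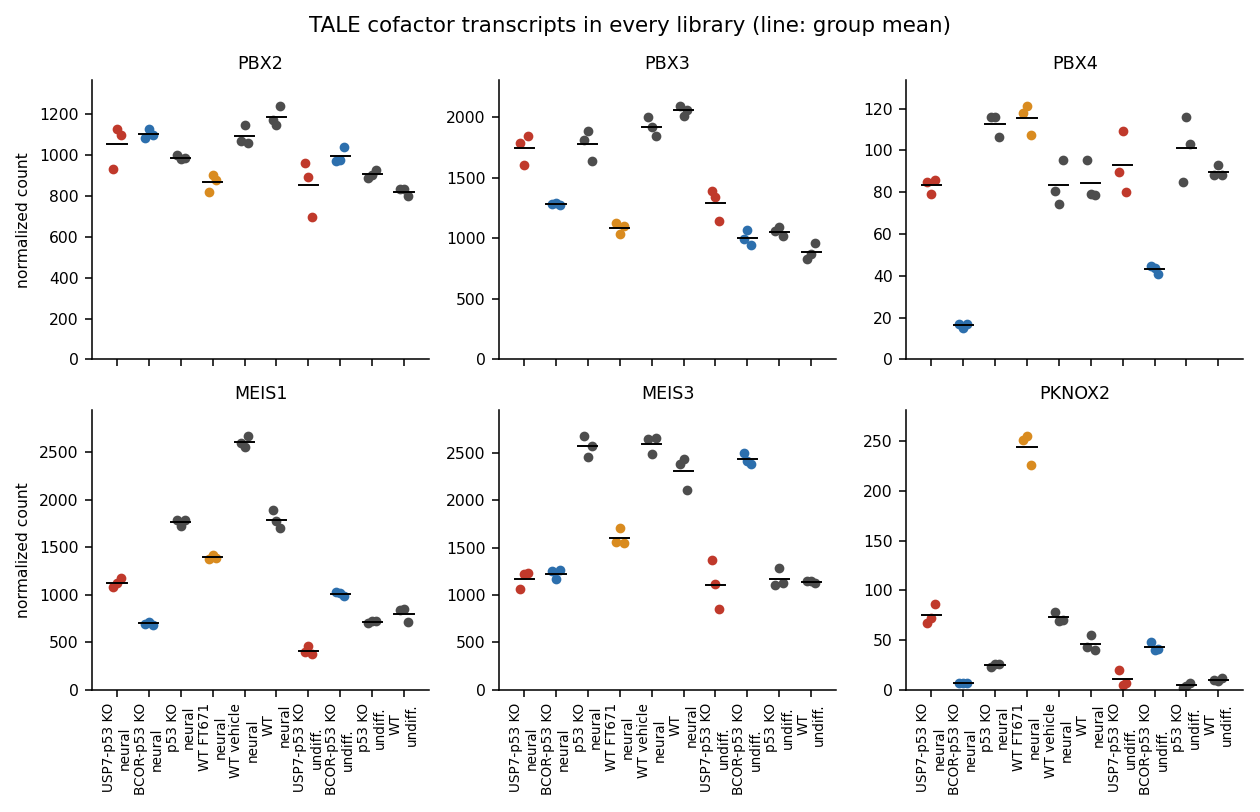
Normalized counts of PBX2, PBX3, PBX4, MEIS1, MEIS3 and PKNOX2 in each of 3 libraries per group, on linear axes that start at 0, with a line at the group mean. PBX4 lies lowest in both p53_BCOR_DKO groups, and PKNOX2 lies highest in the FT671 libraries.

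In USP7-heterozygous cells, whose labels name no p53 knockout, HOXA13 and HOXA11 were higher before differentiation, and HOXB8 and HOXB3 were lower after it. In undifferentiated cells 4 of 28 genes were higher and 12 lower in heterozygous than in wild-type cells, where 25.4% of all genes were called, 11.4% as higher and 14.1% as lower. HOXA13 had 157 and 147 normalized counts in heterozygous libraries and 27.9 and 20.4 in wild-type libraries (log2 difference 2.62 ± 0.36, adjusted p = 6.47e-06). HOXA11 had 36.4 and 21.1 against 0 and 2.04, 57 reads against 2 (ratio 28.0, counting interval 7.39 to 236). HOXD11 had 8.09 and 10.0 against 39.2 and 27.6 (log2 difference -1.76 ± 0.21, adjusted p = 1.08e-06), and HOXD10 66.7 and 59.2 against 154 and 136 (log2 difference -1.19 ± 0.12, adjusted p = 4.92e-08). HOXC8 had 38.4 and 51.2 against 125 and 86.9 (log2 difference -1.21 ± 0.16, adjusted p = 8.84e-06), HOXC11 was lower (-1.01 ± 0.20) and MEIS2 higher (0.26 ± 0.04). HOXD9 was called as higher (0.19 ± 0.07), but not when any 1 of the 4 libraries was left out (adjusted p between 0.0555 and 0.181). Noradrenergic markers made up 0.425% to 0.44% of reads in heterozygous libraries and 0.483% to 0.495% in wild-type libraries, and fibroblast or mesenchyme markers 0.093% to 0.0985% and 0.0753% to 0.0776%. Of 7 noradrenergic markers 1 was called as higher and 3 as lower, and of 6 fibroblast or mesenchyme markers 2 and 2. The part of these markers was not tested. The count of 16 fell to 8 without the first wild-type undifferentiated library and to 10 without the first heterozygous one.

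In neural cells 3 of 28 genes were higher and 8 lower in heterozygous than in wild-type cells, where 21.3% of all genes were called, 9.56% as higher and 11.7% as lower. HOXB8 had 0 and 1.93 normalized counts in heterozygous libraries and 68.2 and 54.8 in wild-type libraries, 2 reads against 126 (ratio 0.016, counting interval 0.0019 to 0.0589). HOXB3 had 34.9 and 22.2 against 142 and 118 (log2 difference -2.18 ± 0.48, adjusted p = 0.00176). HOXA13 had 12.0 and 9.67 against 0 and 0, at least 7.38-fold higher. HOXC8 (-0.70 ± 0.16) and HOXC9 (-0.63 ± 0.10) were lower, and MEIS2 (0.19 ± 0.04) and PBX2 (0.18 ± 0.06) slightly higher. The call of HOXB3 was lost without the second heterozygous neural library (adjusted p = 0.0512), and that of PBX2 without any 1 of the 4 libraries (adjusted p up to 0.203). Fibroblast or mesenchyme markers made up 0.38% to 0.388% of reads in heterozygous neural libraries and 0.238% to 0.253% in wild-type ones, and noradrenergic markers 0.244% to 0.247% and 0.278% to 0.286%. Of 6 fibroblast or mesenchyme markers 3 were called as higher and 2 as lower, and of 7 noradrenergic markers 0 and 3. The part of these markers was not tested. The count of 11 fell to 7 without the first wild-type neural library, and to 7 without the first heterozygous one.

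Within heterozygous cells differentiation raised 19 of 28 genes and lowered 5, where 76.4% of all genes were called, 38.2% as higher and 38.2% as lower. HOXD11 had 114 and 104 normalized counts in neural and 8.09 and 10.0 in undifferentiated libraries (log2 difference 3.46 ± 0.21, adjusted p = 5.99e-13), and HOXD10 361 and 448 against 66.7 and 59.2 (log2 difference 2.66 ± 0.12, adjusted p = 1.12e-15). HOXB3 had 34.9 and 22.2 against 1.01 and 2.01, 58 reads against 3, and PKNOX2 77.8 and 86.1 against 0 and 3.01, 167 against 3. HOXA13 had 12.0 and 9.67 against 157 and 147 (log2 difference -3.70 ± 0.36, adjusted p = 2.25e-09), and HOXA11 2 reads against 57. HOXC11 (-1.49 ± 0.20) and PKNOX1 (-0.74 ± 0.07) were lower.

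The difference that a genotype made was also tested between the states, as an interaction in the same model. For p53 loss 17 of 36 genes had one, where 18.1% of all genes were called, 10.2% as higher and 7.87% as lower. For USP7 loss it was 15 of 36, where 42.1% of all genes were called, 20.9% as higher and 21.2% as lower. For BCOR loss it was 27 of 36, where 63.8% of all genes were called, 29.3% as higher and 34.4% as lower. For USP7 heterozygosity it was 6 of 28, where 16.2% of all genes were called, 8.76% as higher and 7.44% as lower. The 4 tested HOXB genes were among them each time in the first experiment, with a larger neural difference upward for p53 loss and downward for USP7 loss and BCOR loss. These HOXB calls rest on undifferentiated groups with almost no reads, and most of those repeated in edgeR were lost there. The adjusted p in edgeR was 1.0 for HOXB6 in all 3 genotypes, for HOXB9 with p53 loss and USP7 loss, and for HOXB3 with USP7 loss and BCOR loss. For HOXB8 with p53 loss it was 0.877, and 0.284 in DESeq2. None of the other HOXB calls listed here was lost in DESeq2, among those with an adjusted p there. HOXA13 had a positive interaction with USP7 loss and with BCOR loss, and its neural p53-KO libraries held 1 read in all.

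Other genes around the pathway were counted from lists. Of 3 noncoding cluster transcripts, HOTAIR, transcribed from the HOXC cluster, fell to 119, 123 and 137 normalized counts in neural wild-type libraries, against 692, 648 and 635 in undifferentiated ones. Neural p53_USP7_DKO libraries had 245, 295 and 311 for HOTAIR against 47.2, 44.8 and 59.5 in p53-KO libraries (log2 difference 2.47 ± 0.12, adjusted p = 1.3e-16). HOTTIP, transcribed next to HOXA13, had 44.3, 31.2 and 20.6 in undifferentiated p53_USP7_DKO libraries and 5.06, 2.02 and 5.31 in p53-KO libraries (log2 difference 2.70 ± 0.44, adjusted p = 6.72e-06). Of 14 listed retinoic acid receptors, enzymes and binding proteins, 10 were higher and 4 lower in wild-type differentiation, 9 and 2 with BCOR loss in undifferentiated cells, 6 and 5 with USP7 loss there, and 8 and 4 with FT671. Of 19 listed Polycomb genes, 5 were higher and 8 lower with USP7 loss in undifferentiated cells, 7 and 7 with BCOR loss, and 4 and 9 with FT671. Among all genes, 28.9% were higher and 28.4% lower with USP7 loss in undifferentiated cells, and 35.6% and 33.7% with BCOR loss there. With FT671 it was 33% and 32.1%, and in wild-type differentiation 32.4% and 33.4%. These shares hold for the same comparisons of every list here. Of 14 Trithorax and elongation genes, 0 were higher and 10 lower with USP7 loss in undifferentiated cells, 0 and 8 in neural cells, and 0 and 11 with FT671, with median log2 differences of -0.34, -0.17 and -0.36, where 28.4%, 33% and 32.1% of all genes were lower. With BCOR loss 3 were higher and 5 lower in undifferentiated cells and 3 and 1 in neural cells, where 33.7% and 32.9% of all genes were lower. Of 5 listed upstream regulators, 3 were higher and 2 lower with USP7 loss in undifferentiated cells, and 0 and 5 in wild-type differentiation. Of 7 listed cluster neighbours, 3 were higher and 1 lower with USP7 loss in undifferentiated cells, and of 5 other TALE genes (TGIF and IRX), 1 and 3.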

How the data were processed

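Polyadenylated RNA was sequenced in 38 libraries. Per the submitters' processing notes, STAR, HTSeq and DESeq2 were used on hg19, with no versions given. The authors deposited 1 table per experiment of signal values, which are read counts divided by a size factor, plus 1. Whole reads were recovered from them within 0.01 of a whole number. After the 1 was subtracted the values are called normalized counts. Of the columns of the knockout and inhibitor experiment, 6 matched no sample and were not used.

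Log2(normalized count + 1) was fitted with limma 3.58.1 (R 4.3.3, trend and robust options), 1 model per experiment over all its groups, for genes with a mean of at least 5. P-values were adjusted by Benjamini-Hochberg over all genes tested, and genes were called below 0.05. Where a group held at most 3 reads in all, reads are given with a bound against a floor of 3 reads over the group, or a ratio with its exact counting interval; these cover counting error only. As alternatives edgeR 4.0.16 and DESeq2 1.42.0 were run on the recovered reads. The scripts were tested on simulated data.

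Same-numbered libraries were taken as pairs where all 3 correlations of their deviations exceeded 0.1. That held for USP7 loss in undifferentiated cells (0.151, 0.112 and 0.226), from the data and not from the labels.

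Per-library values were chosen by rule: in each comparison up to 4 called genes per direction, by size of change, with a group mean of at least 20, and the TALE genes in wild-type differentiation. Results of some genes are not reported here. Other genes are named for their own values. The genes and lists were chosen with earlier results of these data known.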

Additional observations from a re-analysis of the deposited data

Results flagged for a closer look

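The effect of a genotype differed between the neural and the undifferentiated state for many HOX and TALE genes, by the interaction term of the limma fit at an adjusted p below 0.05. Each value below is a difference of 2 log2 differences, neural minus undifferentiated.

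For p53 loss, 17 genes differed between the states. The effect was more positive in neural cells for HOXB9 (6.56), HOXB6 (4.80), HOXB8 (3.64) and HOXA5 (1.99). None of these 4 calls held in edgeR (adjusted p of 1.0, 1.0, 0.877 and 0.671), where HOXA5 turned to -0.200, and that of HOXA5 was also lost in 9 of 12 fits with a library left out. In DESeq2 the calls of HOXB8 (adjusted p = 0.284) and HOXA5 (adjusted p = 0.847) were lost. The effect was more negative for HOXC-AS1 (-1.49), HOXD11 (-1.35), HOXD10 (-1.05) and HOXC8 (-0.70). The call of HOXC-AS1 was lost without any 1 of 4 libraries and in DESeq2 (adjusted p up to 0.0778).

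For USP7 loss, 15 genes differed. The effect was more negative in neural cells for HOXB8 (-7.01), HOXB9 (-6.88), HOXB3 (-6.66) and HOXB6 (-5.96), of which HOXB9, HOXB3 and HOXB6 had an adjusted p of 1.0 in edgeR. It was more positive for HOXA13 (3.76), HOXC11 (1.45), MEIS2 (0.57) and HOXD11 (0.52). The call of HOXD11 was lost without any 1 of 7 libraries, without both libraries that stood apart, with only the groups compared, in edgeR and in DESeq2 (adjusted p between 0.0584 and 0.13).

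For BCOR loss, 27 genes differed. The effect was more negative in neural cells for HOXB9 (-7.22), HOXB6 (-5.61), HOXB3 (-5.41) and PKNOX2 (-4.96), of which HOXB6 and HOXB3 had an adjusted p of 1.0 in edgeR. It was more positive for HOXA13 (3.10), HOXA11 (1.80) and HOXD13 (0.87).

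For USP7 heterozygosity, 6 genes differed. The effect was more negative in neural cells for HOXB8 (-5.18), HOXB3 (-2.67) and PBX3 (-0.47), and more positive for HOXD11 (1.26), HOXD10 (0.75) and PBX2 (0.35). In edgeR HOXB8 had an adjusted p of 1.0 and HOXB3 of 0.184, and HOXB3 had 0.247 in DESeq2 and 0.0632 without the second heterozygous neural library. HOXD11 had 0.0538 in DESeq2, and PBX2 had 0.0501 without the second heterozygous undifferentiated library. Values of HOXB genes, HOXA5, HOXA11 and HOXA13 rest on groups with at most 3 reads in all and are no bounds.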

How the results depend on the processing

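Calls of 171 gene and comparison pairs named by rule were repeated under each setting that held them. A filter at a mean of 20 left 137 of them tested, and all of these kept their call. The replicate block covered 135. HOXA5 in the interaction of p53 loss with differentiation turned to -0.200 in edgeR with TMM and to -0.159 in edgeR with RLE, against 1.99, with adjusted p of 0.671 and 0.672. Otherwise directions held, and 12 pairs lost their call in each edgeR run, 8 in DESeq2, 4 with only the groups compared, 2 with 0.5 as the added value, 1 with TMM rescaling, 0 with 5 as the added value and 48 of 1100 tests with a library left out. The cause was not tested. For USP7 heterozygosity DESeq2 called 8 genes in undifferentiated cells, against 16, and 3 in the interaction, against 6. The replicate block gave 18 genes for USP7 loss in undifferentiated cells, as without it, and changed no named call. In the heterozygote experiment the columns carry other numbers than the titles, and by column number only both states of the heterozygous cells share 2. With that number as a replicate block, a setting chosen after seeing the data, 24 genes were called for heterozygote differentiation, as without it, and the correlation of same-numbered deviations was 0.013. No paired analysis was possible for the other comparisons there because their columns share fewer than 2 numbers. With the third p53-KO and p53_USP7_DKO undifferentiated libraries both left out, a setting chosen after seeing the data, USP7 loss in undifferentiated cells gave 19 genes, against 18, and 3 named calls were lost.

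With each library left out in turn, counts lay between 29 and 32 for wild-type differentiation, 26 and 27 for p53-KO, 20 and 21 for p53_USP7_DKO and 20 and 23 for p53_BCOR_DKO differentiation. They lay between 5 and 7 for p53 loss undifferentiated, 16 and 19 neural and 12 and 17 in its interaction. For USP7 loss they lay between 16 and 22, 27 and 30, and 12 and 18, and for BCOR loss between 22 and 23, 30 and 33, and 24 and 27, in the same order. USP7 against BCOR loss gave 22 to 25 and 24 to 25, FT671 23 to 26 and the vehicle 7 to 8. In the heterozygote experiment wild-type differentiation gave 21 to 22 and heterozygote differentiation 22 to 24. Heterozygosity gave 8 to 15 undifferentiated, 7 to 9 neural and 5 to 10 in the interaction, where 10 came without the second wild-type undifferentiated library. Genes with at most 3 reads in a group are limited by depth, and HOXB5 and HOXB7 were not tested.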
